A study of Mus musculus with 12 samples.

Results

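The comparison set 3 livers of mice carrying a c-Myc transgene (MYC; mice 31, 75 and 87) against 3 wild type livers (WT; mice 54, 72 and 93), chosen by their labelled genotype. These are 6 of the 12 libraries of the series, and every gene of their count tables was used. The other 6 come from livers with an AEG-1 transgene (AEG1, mice 26, 27 and 120) and with both transgenes (AEG1_MYC, mice 48, 68 and 94). They serve here as the same c-Myc comparison on another background. Their counts also entered the fit that gave the SE and p values of MYC against WT. All 4 genotypes came from crosses of Alb/AEG-1 heterozygotes with Alb/c-Myc heterozygotes, so each transgene is driven by the albumin promoter, that is, in hepatocytes. The mice were untreated adults, and total RNA of whole liver was sequenced. The labels give no sex, exact age, litter, collection time or tumour status, and RNA of other liver cells is part of each library.

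MYC is a transcription factor that pairs with MAX and binds the E-box CACGTG and its variants near many promoters. It is best known for raising the supply of ribosomes, nucleotides and polyamines and for driving cells into the cycle. Ribosome supply needs the ribosomal proteins, RNA polymerase I for ribosomal RNA, assembly factors, and small nucleolar RNAs (snoRNAs), which guide the modification of ribosomal RNA and are cut from introns of host genes. In liver, MYC is active in regeneration and in many hepatocellular tumours.

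The 6 libraries held 24909085 to 36177913 reads in genes and 15620 to 16464 genes with a read. Hepatocyte transcripts were abundant in all of them, and Alb, albumin, stood at 83489 to 92835 CPM (reads per 1000000, scaled by TMM factors) in WT and at 53122 to 69971 CPM in MYC livers. Y-linked Ddx3y was at 90.8 CPM or more in each of the 6 libraries and Xist at 0.183 CPM or less. A score of 14 clock genes was 0.03, 0.67 and -0.48 in WT livers and 1.15, 1.25 and -0.77 in MYC livers, so MYC mouse 87 stood apart from the other 2 by time-of-day genes. Of the libraries used for the other background, AEG1_MYC mouse 48 held the acute phase gene Hp at 11230 CPM, against at most 2995 CPM elsewhere, and AEG1_MYC mouse 68 held Glul, glutamine synthetase, at 15863 CPM, against at most 3070 CPM elsewhere. Mouse 68 also held Ddx3y at 3.94 CPM, below the other AEG1_MYC livers at 102 and 135 CPM. Values are such CPM, or log2 fold changes (MYC over WT) ± SE from edgeR's quasi-likelihood fit, and adjusted p values follow Benjamini and Hochberg across 13684 tested genes. The labels tell the mice apart only by genotype and number. The edgeR p values weigh each difference against the spread between mice within genotypes, estimated over all genotypes of the series. AEG1_MYC mice 48 and 68 therefore enter that spread as well.

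Myc, the transgene's own gene, was at 4.73, 2.79 and 2.26 CPM in the WT livers and at 23.4, 30.5 and 53.8 CPM in the MYC livers. Each MYC liver lay above each WT liver, with a difference of 3.45 ± 0.47. It had the lowest p of all genes and still did not pass over all of them by edgeR (adjusted p = 0.266), whereas DESeq2 called it (adjusted p = 2.5e-11) and so did edgeR without AEG1_MYC mouse 68 (adjusted p = 0.041). The same transgene gave 4.61 ± 0.49 between AEG1_MYC and AEG1 livers (edgeR adjusted p = 0.00523). The difference between the backgrounds was 1.16 ± 0.62 and did not pass edgeR's test (adjusted p = 0.591). The counts do not separate reads of the transgene from those of the mouse's own Myc. Mtdh, the mouse gene for AEG-1, was at 99.9, 102 and 99.4 CPM in WT and at 99.3, 95.6 and 96.6 CPM in MYC livers (-0.05 ± 0.10).

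Most partners and relatives of MYC had values near 0. Max, its obligate partner, was at 22.9, 25.6 and 19.9 CPM in WT and at 24.6, 23.2 and 26.8 CPM in MYC livers (0.12 ± 0.18). Mycl1, the L-Myc paralog, stood at -0.13 ± 0.17. Mycn, the N-Myc paralog, was at 9.21, 3.41 and 1.54 CPM in WT and at 1.11, 1.11 and 1.05 CPM in MYC livers, a difference of -2.12 ± 0.77. The 3 MYC livers were all below the 3 WT livers, among which mouse 54 was highest, and the value was -1.16 without it. Over the 29 genes of the MYC and MAX network the median was 0.06, and none passed edgeR's test.

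**Figure D1:**
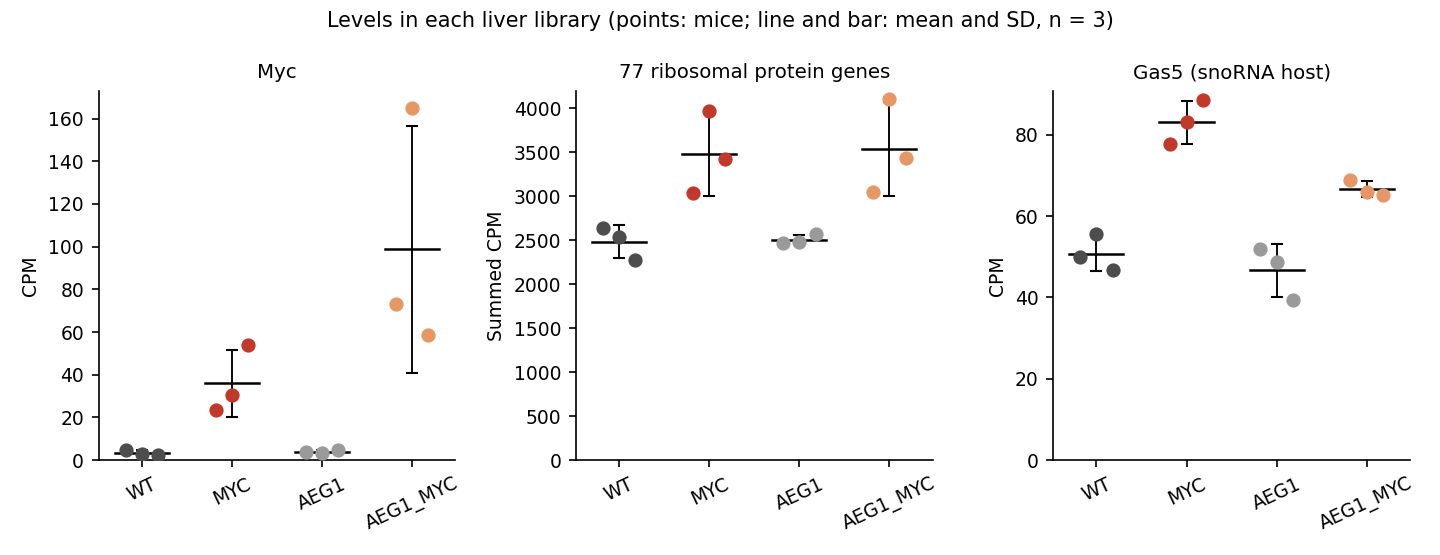
Level in each of the 12 liver libraries, by genotype, of Myc (CPM), of 77 ribosomal protein genes (summed CPM) and of Gas5 (CPM). Points are mice, and the line and bar are the mean and SD of 3 mice. In each panel the 3 MYC livers lie above the 3 WT livers and the 3 AEG1_MYC livers above the 3 AEG1 livers.

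Across all genes, edgeR called 0 of 13684 (0%) and 475 had an unadjusted p under 0.05. Of these 252 were higher in MYC livers (1.84% of tested genes) and 223 lower (1.63%). DESeq2 on the same counts called 28 genes (0.205%), 19 higher and 9 lower, and limma voom called 0. As a measure that needs no model, 749 genes had all 3 MYC livers above all 3 WT livers (5.47%), and 833 had all 3 below (6.09%). Gene groups below are described by these counts and by the median log2 fold change, which was -0.00 over all tested genes. No member of any group passed edgeR's test over all genes.

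The cytosolic ribosomal proteins had mostly positive values. Of 77 tested genes 72 had positive fold changes, with a median of 0.48, and in 46 (59.7%) all 3 MYC livers lay above all 3 WT livers, against 5.47% of all genes. Of the 252 genes with an unadjusted p under 0.05 and higher in MYC livers, 41 were ribosomal proteins. Their summed level was 2640, 2536 and 2278 CPM in the WT livers and 3032, 3967 and 3427 CPM in the MYC livers. No MYC liver reached down to a WT liver. The order of the MYC livers was not that of Myc itself, since mouse 75 had the highest ribosomal sum and mouse 87 the highest Myc.

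Both subunits contributed, with 45 of 47 listed genes of the large and 32 of 33 of the small subunit reaching the level for testing. Of the large subunit, which holds the peptidyl transferase centre, 41 of 45 genes were positive with a median of 0.45, and 27 lay above WT in every pair of livers. Of the small subunit, which decodes the mRNA, 31 of 32 were positive with a median of 0.48, and 19 lay above. Rpl32, of the large subunit, was at 37, 37.2 and 33.4 CPM in WT and at 48.5, 61.6 and 53.6 CPM in MYC livers, a difference of 0.61 ± 0.12 (DESeq2 adjusted p = 0.0194). Rps3, of the small subunit, was at 253, 226 and 212 CPM in WT and at 284, 347 and 311 CPM in MYC livers (0.45 ± 0.11, DESeq2 adjusted p = 0.0321). For both genes MYC mouse 75 was highest and the groups did not overlap.

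Gnb2l1, whose product RACK1 sits on the small subunit, was at 287, 278 and 241 CPM in WT and at 353, 481 and 396 CPM in MYC livers (0.61 ± 0.13, DESeq2 adjusted p = 0.0121). Rps19 and Rpl13a were also among the 7 ribosomal genes that DESeq2 called, at 0.86 ± 0.20 and 0.61 ± 0.13. The 5 members with a negative fold change included Rpl30 (-0.54 ± 0.37), Rpl23a (-0.33 ± 0.25), Rpl9 (-0.13 ± 0.36) and Rps13 (-0.03 ± 0.39). Each of these stayed below 5 CPM in all 6 livers, and Rpl23a was the 1 member with all MYC livers below all WT livers.

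**Figure D2:**
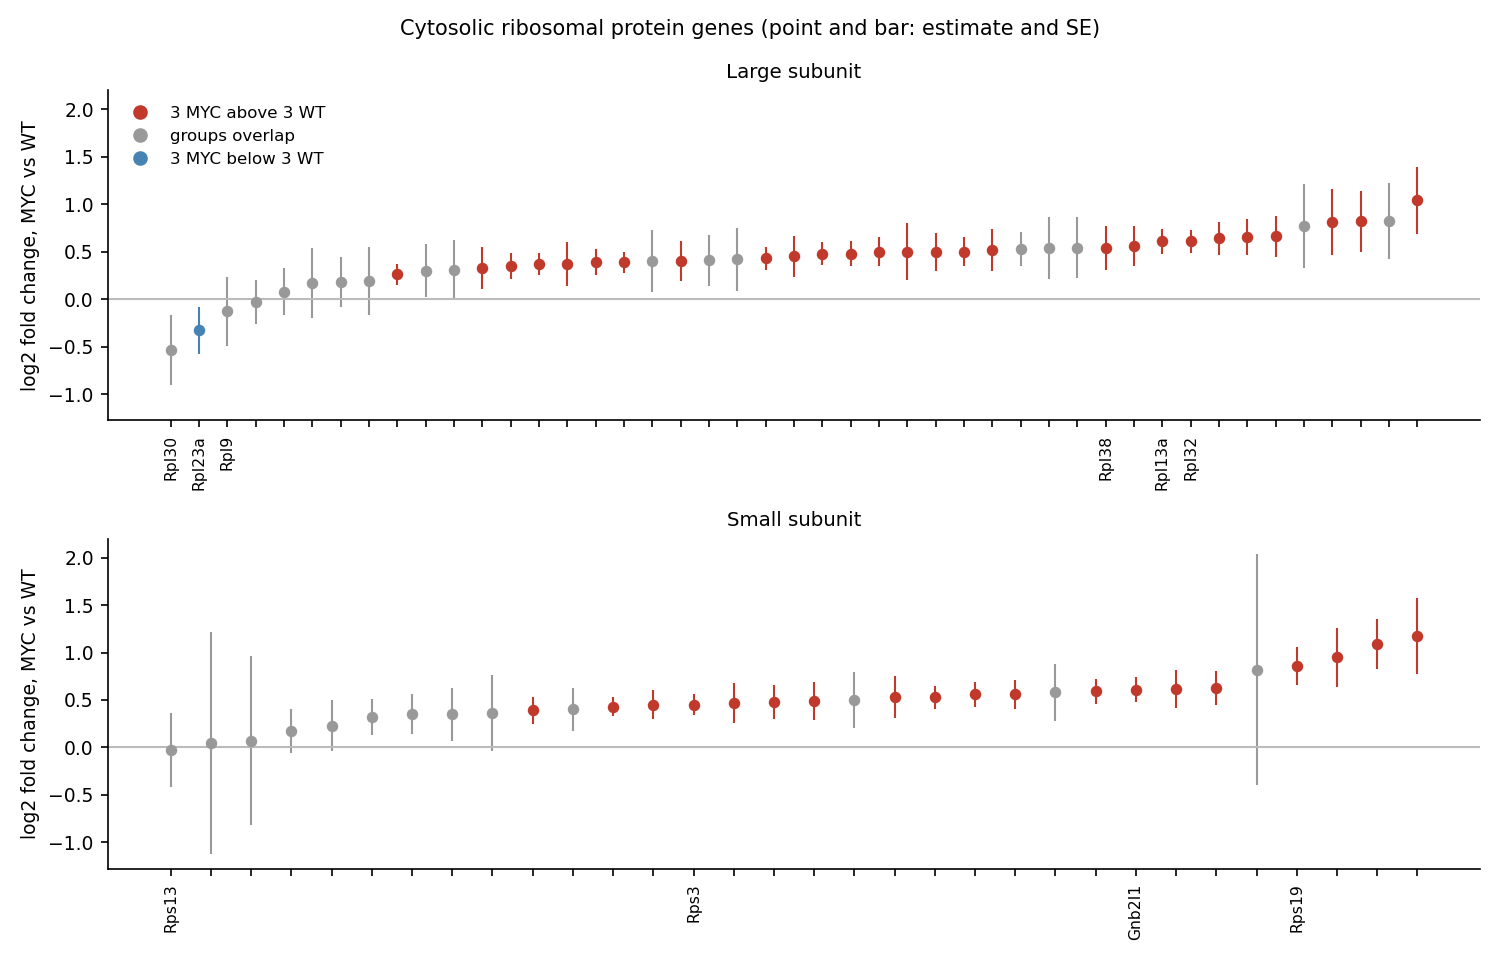
log2 fold change between MYC and WT livers (vertical axis) of each tested cytosolic ribosomal protein gene (horizontal axis, in order of the estimate, with names for those given in the text), large subunit above and small subunit below. Points and bars are the estimate and its SE, and colour marks whether the 3 MYC and 3 WT values overlap. Of the 77 genes 72 lie above 0, and 46 have no overlap with MYC higher.

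Ribosomal protein genes have many processed copies in the genome, and only uniquely aligned reads were counted here, so levels of single genes are uncertain. Their transcripts are typically short as well. Among other genes the median was 0.07 for 125 genes with a longest transcript under 600 bases and -0.01 for 428 genes of 600 to 1000 bases, and 9.6% and 9.35% of them had all MYC livers above all WT livers, against 4.58 to 5.51% in bins of longer transcripts. For 82 genes under 1000 bases with a mean of at least 50 CPM the median was -0.04 and this share 6.1%. Gm6251, which RefSeq names Rpl32l, is not counted among the ribosomal proteins here. It was at 16.6, 17 and 15.8 CPM in WT and at 23.1, 27.9 and 22.7 CPM in MYC livers (0.58 ± 0.11, DESeq2 adjusted p = 0.0121), and reads of such a copy may be uncertain.

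The AEG1 and AEG1_MYC livers give the same question in libraries that the comparison of MYC with WT did not use. The summed ribosomal level was 2471, 2480 and 2572 CPM in AEG1 and 3051, 4111 and 3439 CPM in AEG1_MYC livers, again without overlap. In 48 of the 77 genes (62.3%) all AEG1_MYC livers were above all AEG1 livers, against 9.6% of all tested genes (8.24% were below), and 38 genes lay above in both backgrounds. The median was 0.50, and 0.37 without AEG1_MYC mouse 68 or 0.62 without mouse 48.

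The genes that host snoRNAs also had mostly positive values. Of 16 tested hosts 15 were positive, with a median of 0.60. In 9 of them (56.2%) all MYC livers were above all WT livers, against 5.47% of all genes. Their summed level was 149, 188 and 168 CPM in WT and 217, 261 and 250 CPM in MYC livers. No MYC liver reached down to a WT liver. The median was 0.41 without MYC mouse 87, 0.43 without WT mouse 93 and 0.71 without WT mouse 72. On the AEG1 background the median was 0.70, and 0.52 without AEG1_MYC mouse 68. There 10 hosts (62.5%, against 9.6% of all tested genes) lay above in all pairs, 7 of them the same as here. The summed host level there was 192, 154 and 259 CPM in AEG1 and 228, 571 and 227 CPM in AEG1_MYC livers, which overlapped through AEG1 mouse 120.

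1500012F01Rik (Zfas1) was at 9.36, 10.8 and 8.5 CPM in WT and at 19.5, 22.1 and 24.9 CPM in MYC livers, a difference of 1.21 ± 0.19 (DESeq2 adjusted p = 5.4e-05). On the AEG1 background it passed edgeR's test (1.10 ± 0.19, edgeR adjusted p = 0.0458). Gas5, a noncoding host of many box C/D snoRNAs, was at 50, 55.5 and 46.8 CPM in WT and at 77.8, 83 and 88.4 CPM in MYC livers (0.71 ± 0.11, DESeq2 adjusted p = 5.4e-05). Snhg8 was at 9.67, 11.4 and 10.5 CPM in WT and at 14.9, 17.9 and 17.2 CPM in MYC livers (0.66 ± 0.13, DESeq2 adjusted p = 0.0148), but stood at 0.12 ± 0.13 on the AEG1 background, where the groups overlapped. In these 3 hosts every MYC liver was above every WT liver by more than the spread within either group. Snhg4 (1.57 ± 0.45), 2410004N09Rik (0.83 ± 0.21), 1810032O08Rik (0.67 ± 0.32), Snhg1 (0.65 ± 0.28), Snhg7 (0.64 ± 0.26) and 2700023E23Rik (0.57 ± 0.37) also had no overlap, and Snhg10 was the 1 host with a negative value (-0.14). Of these, 1810032O08Rik was at 0.38 without MYC mouse 87 and 2700023E23Rik at 0.36 without WT mouse 93 and 0.86 without WT mouse 72.

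Ribosomal protein mRNAs and several snoRNA hosts are known for a terminal pyrimidine tract, a C at the cap followed by a run of C and T that places their translation under the mTOR pathway. A C at the annotated start followed by 4 bases that are C or T, read on the gene's strand at that position only, was looked up in RefSeq windows after the values had been seen. It stood in 15 of 58 ribosomal protein genes with a window (25.9%) and in 3 of 13 snoRNA hosts (23.1%), against 317 of 10789 tested genes (2.94%). It stood in 1 of 80 ribosome biogenesis factors (1.25%) and 0 of 68 mitochondrial ribosomal proteins. Translation factors held it in 2 of 39 (5.13%) and nuclear genes of oxidative phosphorylation in 4 of 63 (6.35%). Of all genes with every MYC liver above every WT liver 3.5% held it, and of those with every MYC liver below 2.91%. Annotated starts can be off by a few bases, and anywhere from 5 bases before to 10 after the start the tract stood in 48.3% of the ribosomal genes and 23.7% of all tested genes. The 5 stretches below, from RefSeq on GRCm38.p6, show 20 bases before and 10 after the start of members without overlap between MYC and WT livers, with the tract in capitals.
Gnb2l1, chr11:48800340-48800369, plus strand: tccggcggaggccgctctttCTTTTTCTCC
Rpl38, chr11:114668560-114668589, plus strand: ccggaagcggaagcctcgttCTTTCCCCgt
Eif3f, chr7:108934395-108934424, plus strand: gctcttctgttctaggctctCTCTCTTTCT
Gas5, chr1:161035146-161035175, plus strand: gactcagccgccatctcagcCTTTCggagc
Snhg8, chr3:123508327-123508356, minus strand: tgcgcgcaccgttcagaagtCTCTTTggct

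The rest of the ribosome supply chain had medians closer to 0. The 95 tested ribosome biogenesis factors, which process ribosomal RNA and assemble subunits, had a median of 0.08 with 72 positive. In 6 of them (6.32%) all MYC livers were above all WT livers, a share near the 5.47% of all genes. Their median in the single MYC livers, relative to the WT mean, was -0.05 in mouse 31, 0.02 in mouse 75 and 0.27 in mouse 87, and it was -0.04, 0.21 and -0.17 in the WT livers. Without mouse 87 the median of the comparison was -0.04. Nhp2, a core protein of box H/ACA snoRNPs, was at 16.6, 18.1 and 16 CPM in WT and at 22.9, 34.1 and 28.5 CPM in MYC livers (0.75 ± 0.18). Npm1, nucleophosmin, was at 37.8, 36.4 and 32 CPM in WT and at 43.8, 48.3 and 47.7 CPM in MYC livers (0.40 ± 0.16), while Rcl1, an early processing factor, stood at -0.43 ± 0.18.

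The 19 genes of RNA polymerase I and its factors had a median of 0.11, with none above WT in all pairs and Taf1b below in all (-0.39 ± 0.18). The 77 mitochondrial ribosomal proteins had a median of 0.06 and 11 without overlap on the higher side (14.3%, against 5.47% of all genes). Among 51 translation factors the median was also 0.06, and 8 lay above in all pairs (15.7%). Eef1b2, a subunit of the elongation factor that reloads eEF1A, was at 122, 123 and 105 CPM in WT and at 168, 209 and 178 CPM in MYC livers (0.66 ± 0.16). Pabpc1, the cytoplasmic poly(A)-binding protein, stood at 0.36 ± 0.11, Eef2 at 0.30 ± 0.14 and Eef1a1 at 0.29 ± 0.13, and initiation factors such as Eif4e (-0.03) and Eif4a1 (0.06) lay near 0.

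A list of 54 genes known as direct induced targets of MYC had a median of 0.12, with 44 positive. In it 4 genes had no overlap on the higher side (7.41%), a share near the 5.47% of all genes. Those were C1qbp, a mitochondrial matrix protein (0.46 ± 0.12), Npm1, the mitochondrial chaperonin Hspd1 (0.25 ± 0.13) and the glutamine transporter Slc1a5 (1.11 ± 0.51). Odc1, ornithine decarboxylase of polyamine synthesis, was at 14.9, 19.1 and 14.7 CPM in WT and at 12.5, 20.5 and 17.1 CPM in MYC livers (0.04 ± 0.28). Ncl, nucleolin, was at 195, 210 and 200 CPM in WT and at 198, 261 and 264 CPM in MYC livers (0.26 ± 0.16). The groups overlapped for both genes. The list's median was -0.08 in MYC mouse 31, 0.19 in mouse 75 and 0.28 in mouse 87 relative to the WT mean, and 0.02 for the comparison without mouse 87. Medians were 0.06 for 36 genes of nucleotide synthesis, -0.03 for 13 of polyamine metabolism, 0.03 for 39 aminoacyl-tRNA synthetases, -0.06 for 38 proteasome subunits, of which 4 were positive, and -0.03 for 24 genes known as repressed by MYC.

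**Figure D3:**
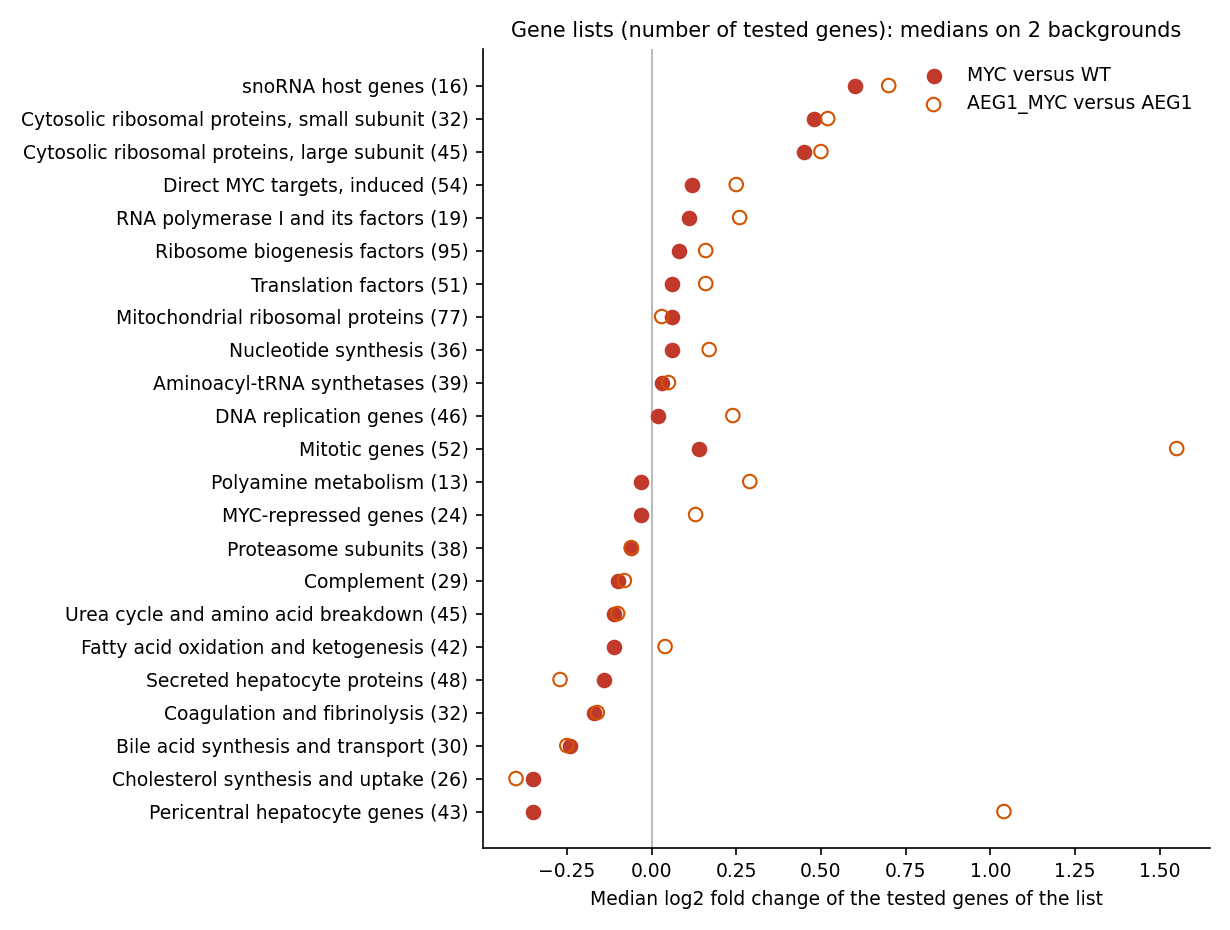
Median log2 fold change (horizontal axis) over the tested genes of each list, with their number in brackets, for MYC against WT (filled) and AEG1_MYC against AEG1 (open). Among the lists drawn, the snoRNA hosts and both ribosomal lists lie farthest to the right on the MYC comparison (0.60, 0.48 and 0.45), the pericentral and cholesterol lists farthest to the left (-0.35 each), and the pericentral list is at 1.04 on the other background.

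The E-box CACGTG, a palindrome and so the same on both strands, was counted in RefSeq windows from 250 bases before to 50 after each start. It stood in 9.62% of 13754 windows of tested genes. Shares were 22% for the direct targets, 22.4% for the biogenesis factors, 24.5% for the translation factors, 17.1% for the large and 3.33% for the small ribosomal subunit, and 0 of 15 windows of the snoRNA hosts. Genes with all MYC livers above all WT livers held it in 7.69% of windows and those with all below in 8.71%. Of the genes that DESeq2 called, the higher ones held it in 22.2% of 18 windows and the lower ones in 14.3% of 7. The 3 stretches below show it in capitals upstream of a ribosomal gene, of a direct target and of Prdx4, which was lower in MYC livers, from RefSeq on GRCm38.p6. A match describes the sequence and is not a binding site.
Rpl13a, chr7:45128910-45128975, minus strand: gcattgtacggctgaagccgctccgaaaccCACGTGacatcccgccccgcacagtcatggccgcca
Hspd1, chr1:55088288-55088353, minus strand: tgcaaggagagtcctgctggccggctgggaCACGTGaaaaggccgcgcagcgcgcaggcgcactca
Prdx4, chrX:155338477-155338542, minus strand: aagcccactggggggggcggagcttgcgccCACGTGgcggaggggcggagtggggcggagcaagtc

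Of the 28 genes that DESeq2 called, all 28 had no overlap between MYC and WT livers, the same livers that gave the calls. Ribosomal proteins or snoRNA hosts, which make up 77 and 16 of the 13684 tested genes, were 10 of the 19 higher ones. On the AEG1 background 23 of the 28 had the same sign. So did 486 of the 749 genes with every MYC liver above every WT liver, and 436 of the 833 with every one below. Among the other higher genes, Csda (Ybx3), a cold shock domain protein that binds mRNA, was at 18.5, 17.6 and 17.9 CPM in WT and at 26.1, 32.4 and 32.2 CPM in MYC livers (0.75 ± 0.14, DESeq2 adjusted p = 0.00436). Smpdl3b, a phosphodiesterase related to acid sphingomyelinase, was at 0.458, 0.651 and 0.897 CPM in WT and at 4.49, 6.69 and 3.37 CPM in MYC livers (2.87 ± 0.57, DESeq2 adjusted p = 0.00107). Sult2a7, of the sulfotransferase family that acts on steroids and bile acids, was at 2.01, 2.68 and 9.14 CPM in WT and at 79.1, 63.9 and 54.2 CPM in MYC livers (3.85 ± 0.98, DESeq2 adjusted p = 0.0321). Sult2a genes have near-identical copies, so its level is uncertain.

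Some of these calls were not matched on the other background. Onecut1, the HNF6 factor of hepatocytes and bile ducts, was at 18.2, 10.4 and 11.4 CPM in WT and at 69, 35.4 and 45.4 CPM in MYC livers (1.90 ± 0.47, DESeq2 adjusted p = 0.0226). It was at 84.8, 29.9 and 23.2 CPM in AEG1 and at 13.9, 9.51 and 9.15 CPM in AEG1_MYC livers, a value of -2.08 ± 0.48. The difference between the backgrounds did not pass edgeR's test (-3.98 ± 0.67, adjusted p = 0.120). Map3k14, the NIK kinase of noncanonical NF-kB signalling, stood at 1.07 ± 0.24 (DESeq2 adjusted p = 0.0321) and at -0.27 ± 0.24 on the AEG1 background. It was at 7.29, 10 and 8.93 CPM in WT and already at 15.4, 13.8 and 12 CPM in AEG1 livers. Ptpla (0.74 ± 0.16) and Lrtm2 (4.32 ± 1.17), the latter at 0.128 CPM or less in each WT liver, complete the higher calls with Myc and Gm6251.

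Of the 9 lower calls, Gtf2ird1, a transcription factor of the TFII-I family, was at 22.4, 27.9 and 25 CPM in WT and at 13.9, 13.8 and 9.67 CPM in MYC livers (-1.01 ± 0.18, DESeq2 adjusted p = 0.00251). Ank, a transporter involved in pyrophosphate export, was at 56.8, 51.8 and 56.2 CPM in WT and at 37.9, 38.5 and 43.5 CPM in MYC livers (-0.46 ± 0.09, DESeq2 adjusted p = 0.00436). Prdx4, the peroxiredoxin of the endoplasmic reticulum, was at 84.4, 84 and 91.1 CPM in WT and at 62.2, 63.8 and 70.6 CPM in MYC livers (-0.40 ± 0.09, DESeq2 adjusted p = 0.0321). These 3 were also negative on the AEG1 background (-0.42, -0.41 and -0.16), but the groups overlapped there for Gtf2ird1 and Prdx4. AEG1 livers, without the c-Myc transgene, had Gtf2ird1 at 18.1, 20 and 13.7 CPM, below each WT liver. They had Prdx4 at 79.3, 69.8 and 80.3 CPM, also below each WT liver, and Ank at 53, 54.4 and 57.6 CPM, which overlapped WT. Ahsg, the plasma protein fetuin-A, stood at -0.40 ± 0.14, Fam83f at -1.48 ± 0.33, BC024139 at -0.95 ± 0.20, Gm16548 at -0.75 ± 0.17, Tmco4 at -0.54 ± 0.13 and 2310014L17Rik at -2.64 ± 0.63. On the AEG1 background Ahsg (0.03) and Gm16548 (0.05) were near 0, and Tmco4 was at 0.60 ± 0.13 with all AEG1_MYC livers above all AEG1 livers. The AEG1 livers themselves had Ahsg at 5928, 4988 and 4931 CPM, below the WT livers at 6787 CPM or more. They had Tmco4 at 11.3, 8.93 and 10.4 CPM, below the WT livers at 13.9 CPM or more. They had Fam83f at 2.87, 3.11 and 3.36 CPM, below the WT livers at 5.09 CPM or more. Gm16548 was at 4.68, 3.79 and 4.09 CPM in AEG1 livers and overlapped WT livers at 4.44 CPM or more.

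Further down the list of lower genes, none called by DESeq2, Cyp2c67, a cytochrome P450, was at 190, 448 and 439 CPM in WT and at 122, 173 and 189 CPM in MYC livers (-1.15 ± 0.30). Agtr1a, the angiotensin II receptor of the liver, was at 88.5, 81.8 and 79.8 CPM in WT and at 62.4, 65.5 and 55.4 CPM in MYC livers (-0.45 ± 0.12). In AEG1 livers Agtr1a was at 64, 75.4 and 64.4 CPM, below each WT liver. Cyp2c67 was at 342, 353 and 235 CPM in AEG1 livers, inside the WT range. Both genes were near 0 on the AEG1 background (0.07 each). Ces2c, a carboxylesterase, stood at -0.74 ± 0.19 here and at 1.14 ± 0.19 there, whereas Fam82a1 (-0.51 ± 0.12 and -0.31 ± 0.12) and Stxbp6 (-0.56 ± 0.15 and -0.35 ± 0.15) were negative on both backgrounds. No MYC liver overlapped a WT liver in these 5 genes, though Cyp2c67 came close through MYC mouse 87 and WT mouse 54.

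**Figure D4:**
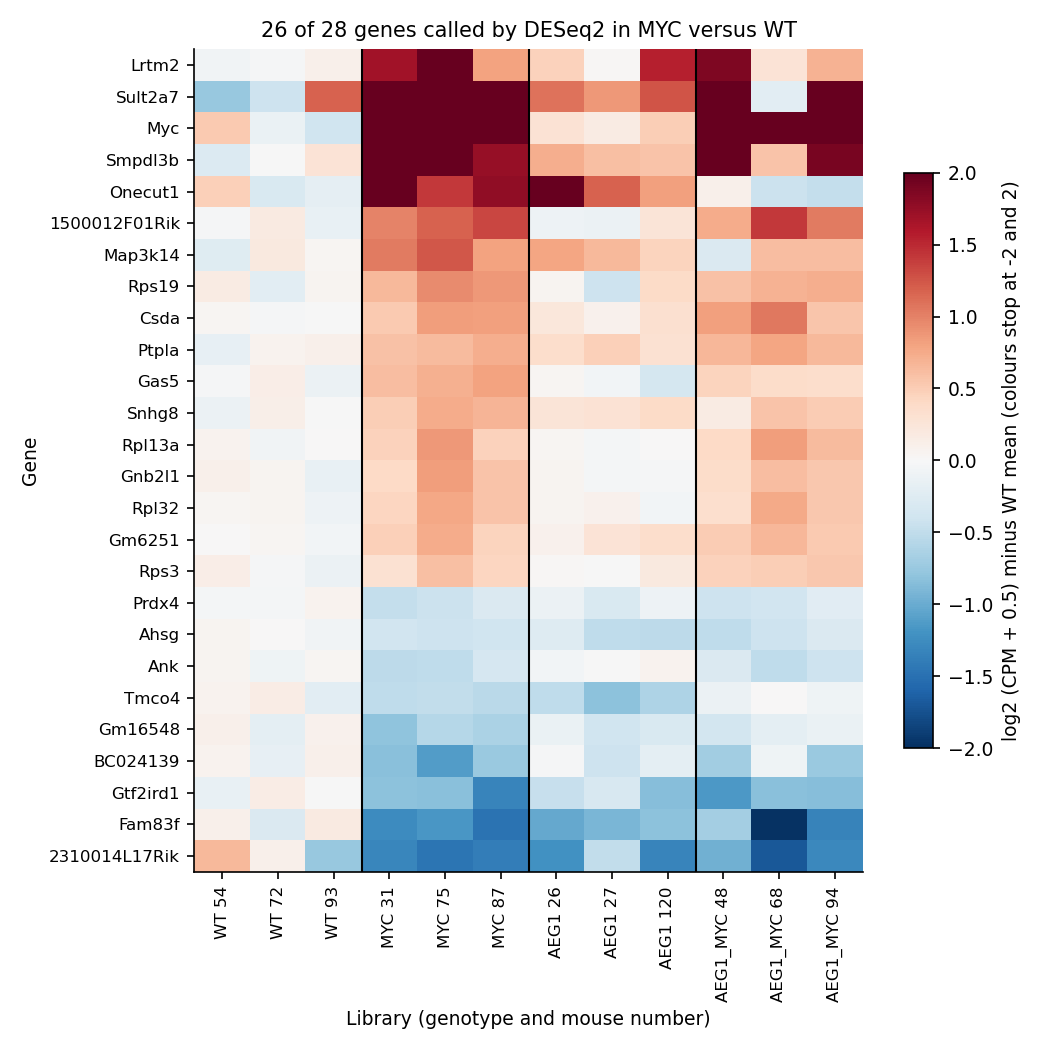
log2 (CPM + 0.5) of 26 of the 28 genes that DESeq2 called between MYC and WT livers, minus the WT mean, by gene (rows) and library (columns, with genotype and mouse number). Red is above and blue below the WT mean. The 17 higher genes drawn are red in all 3 MYC livers, and ribosomal genes and snoRNA hosts are red again in the AEG1_MYC livers, and Snhg8 is pale red in AEG1 livers as well, while Onecut1 is red in AEG1 livers and pale or blue in AEG1_MYC livers.

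Cell cycle genes gave single genes rather than a shift of the group. Ccne1, cyclin E1 of S-phase entry, was at 0.946, 1.45 and 0.94 CPM in WT and at 3.56, 2.93 and 8.75 CPM in MYC livers (2.19 ± 0.65), and stood at 2.07 ± 0.65 on the AEG1 background. E2f1, an activator of S-phase genes, was at 2.17, 2.37 and 2.56 CPM in WT and at 3.42, 5.02 and 3.03 CPM in MYC livers (0.69 ± 0.21). E2f7, a repressor of E2F targets, was at 2.81, 1.19 and 2.43 CPM in WT and at 0.725, 0.752 and 0.553 CPM in MYC livers (-1.66 ± 0.46). The groups did not overlap in any of these 3 genes, and none passed either test over all genes. Ccnd1, cyclin D1, was at 138, 58.6 and 42.8 CPM in WT and at 30.8, 30 and 33.1 CPM in MYC livers (-1.35 ± 0.50), and the value was -0.68 without WT mouse 54. E2f1 was at 0.45 without MYC mouse 75.

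Over the 52 tested mitotic genes the median was 0.14, and it was 0.67 without WT mouse 54 and -0.07 without WT mouse 72. All MYC livers were above all WT livers in 3 of them (5.77%, against 5.47% of all genes), namely Aurkb, Prc1 and Melk, and below in 2, Cenpa (-0.53 ± 0.24) and Bub3 (-0.16 ± 0.08). The summed mitotic level was 194, 116 and 152 CPM in WT and 134, 168 and 163 CPM in MYC livers, so that the MYC values lay inside the WT range. DNA replication genes had a median of 0.02 over 46 genes and the G1 and E2F list 0.02 over 29. On the AEG1 background the mitotic median was 1.55, and 1.10 without AEG1_MYC mouse 68. Hrk, a BH3-only inducer of apoptosis, was at 0.305, 0.268 and 0.342 CPM in WT and at 0.691, 1.92 and 2.08 CPM in MYC livers (2.36 ± 0.69). On the AEG1 background Hrk passed edgeR's test (4.19 ± 0.71, adjusted p = 0.0452).

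Genes of cholesterol synthesis and uptake were negative in 24 of 26, with a median of -0.35, and 10 (38.5%) had all MYC livers below all WT livers, against 6.09% of all genes. Sqle, squalene epoxidase, was at 202, 122 and 119 CPM in WT and at 55, 94.6 and 92.1 CPM in MYC livers (-0.87 ± 0.39), or -0.57 without WT mouse 54. Cyp51, lanosterol demethylase, was at 366, 322 and 329 CPM in WT and at 209, 248 and 256 CPM in MYC livers (-0.51 ± 0.25). Hsd17b7, another enzyme of the pathway, was at 162, 159 and 164 CPM in WT and at 92.5, 117 and 142 CPM in MYC livers (-0.46 ± 0.23). In all 3 genes the MYC livers were below the WT livers, and MYC mouse 31 was lowest. The list's median was -0.27 with the clock score as a covariate and ran from -0.46 to -0.26 as single libraries were left out. It was -0.40 on the AEG1 background, and -0.06 there without AEG1 mouse 120.

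Plasma proteins made by hepatocytes had mostly negative values. Of 48 secreted hepatocyte proteins 8 were positive, with a median of -0.14. In 10 of the 48 (20.8%) all MYC livers were below all WT livers, against 6.09% of all genes. The summed level of these proteins was 200135 to 202500 CPM in WT and 153186 to 173050 CPM in MYC livers. It was 167730 to 187649 CPM in AEG1 livers, also below WT. Apoa1, the main protein of high density lipoprotein, was at 6488, 6328 and 4461 CPM in WT and at 4072, 3242 and 3598 CPM in MYC livers (-0.66 ± 0.21). In AEG1 livers Apoa1 was at 4283, 3999 and 3978 CPM, also below each WT liver, and it stood at 0.23 ± 0.21 on the AEG1 background. Alb stood at -0.54 ± 0.28, Itih2 at -0.39 ± 0.17 and Mup20 at 1.03 ± 0.69 (0.56 without WT mouse 54). Of 32 coagulation and fibrinolysis genes 3 were positive, with a median of -0.17, and 9 (28.1%) lay below in all pairs, such as F5, coagulation factor V (-0.33 ± 0.11), and antiplasmin, Serpinf2 (-0.43 ± 0.19). Of 34 acute phase genes, with a median of -0.19 (-0.09 without MYC mouse 87), 6 lay below in all pairs (17.6%). Another 3 lay above (8.82%, against 5.47% of all genes), among them Orm3, an orosomucoid (1.66 ± 0.98). Apcs, serum amyloid P of that list, was at 270, 222 and 105 CPM in WT and at 59.7, 59.8 and 53 CPM in MYC livers (-1.79 ± 0.59).

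The 8 hepatocyte markers were all negative, with a median of -0.17 and summed levels of 125527 to 128853 CPM in WT and 86962 to 105800 CPM in MYC livers. The sum rests mostly on Alb, whose mean was 87345 CPM in WT and 60188 CPM in MYC livers. In AEG1 livers, without the c-Myc transgene, it was 102337, 109907 and 99447 CPM. Those livers were also below WT and overlapped the MYC livers. In whole liver, fewer hepatocytes and less of an RNA per hepatocyte cannot be told apart from these values. Hnf4a, which maintains hepatocyte identity, stood at -0.13 ± 0.16. Foxa2, another liver transcription factor, was at 26.3, 30.7 and 29.9 CPM in WT and at 71.9, 43.8 and 35 CPM in MYC livers (0.79 ± 0.30), or 0.45 without MYC mouse 31.

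Other metabolic lists had medians below 0. Medians were -0.24 for 30 genes of bile acid synthesis and transport, of which 26 were negative, -0.16 for 50 drug-metabolising cytochromes P450, -0.11 for 45 genes of the urea cycle and amino acid breakdown and -0.11 for 42 genes of fatty acid oxidation. In the bile acid list 6 genes (20%) had all MYC livers below all WT livers, against 6.09% of all genes. The summed level of that list was 16989 to 18650 CPM in WT, 14552 to 15157 CPM in MYC and 14785 to 17334 CPM in AEG1 livers. As single libraries were left out, its median ran from -0.25 to -0.19. Cyp7a1, which starts the classical route to bile acids, was at 165, 76.1 and 133 CPM in WT and at 34.1, 53.8 and 76.5 CPM in MYC livers (-1.18 ± 0.37). The groups overlapped through MYC mouse 87 and WT mouse 72. Cyp27a1, the sterol 27-hydroxylase of the alternative route, was at 537, 520 and 452 CPM in WT and at 391, 404 and 333 CPM in MYC livers (-0.42 ± 0.17), without overlap. Angptl4, an inhibitor of lipoprotein lipase and a PPAR target, was at 170, 127 and 72.5 CPM in WT and at 42.9, 55.5 and 60.2 CPM in MYC livers (-1.22 ± 0.36). Pck1, the gluconeogenic enzyme, was at 2444, 1925 and 2169 CPM in WT and at 378, 707 and 1674 CPM in MYC livers (-1.24 ± 0.84), with mouse 87 nearest to WT and -2.01 without it. In AEG1 livers, without the c-Myc transgene, Pck1 was at 400, 552 and 2673 CPM, and it stood at 0.70 ± 0.83 on the AEG1 background. Pck1 varies with feeding and time of day, and the labels give neither. Genes known as higher in male liver had a median of -0.37 over 23 and those known as higher in female liver -0.16 over 20. The male list ran from -0.52 without MYC mouse 87 to -0.16 without WT mouse 93, and the female list ran from -0.26 without MYC mouse 87 to 0 without WT mouse 54.

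Pericentral hepatocyte genes, which line the central vein under Wnt signalling, were negative in 35 of 43, with a median of -0.35. Of these 43 genes 9 (20.9%) lay below in all pairs, against 6.09% of all genes. The medians relative to the WT mean were 0.27, -0.14 and -0.07 in the WT livers and -0.59, -0.13 and -0.42 in the MYC livers. WT mouse 54 was high, and the median was -0.25 without it. Notum, a secreted Wnt deacylase, was at 54.8, 39.5 and 37.8 CPM in WT and at 24.7, 29.4 and 26 CPM in MYC livers (-0.72 ± 0.36). Cyp2e1, the ethanol-oxidising P450, was at 7929, 6145 and 6266 CPM in WT and at 4075, 5616 and 5300 CPM in MYC livers (-0.44 ± 0.23). In both genes all MYC livers were below all WT livers. AEG1 livers, without the c-Myc transgene, had Notum at 28.2, 30.3 and 22.4 CPM, also below each WT liver. They had Cyp2e1 at 5351, 5098 and 6659 CPM, which overlapped the WT livers. The median of the list relative to the WT mean was -0.22, -0.22 and -0.19 in AEG1 livers. Nkd1, a feedback inhibitor of Wnt signalling, was at 7.14, 5.86 and 5.55 CPM in WT and at 4.39, 5.27 and 4.32 CPM in MYC livers (-0.41 ± 0.15). It was at 5.77, 5.68 and 5.72 CPM in AEG1 and at 59.9, 83.9 and 66.2 CPM in AEG1_MYC livers (3.61 ± 0.16, edgeR adjusted p = 2.6e-06). This difference between backgrounds of 4.02 ± 0.21 passed edgeR's test (adjusted p = 2e-05), the 1 among the named genes that did. Slc1a2, a glutamate transporter of the same zone, stood at -1.02 ± 0.42 (-0.45 without WT mouse 54) and at 3.49 ± 0.46 (adjusted p of the difference = 0.0521). The median of the list on the AEG1 background was 1.04, and 0.73 without AEG1_MYC mouse 68. The difference between the 2 medians was not tested as such. Periportal genes had a median of -0.02 over 35 genes.

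**Figure D5:**
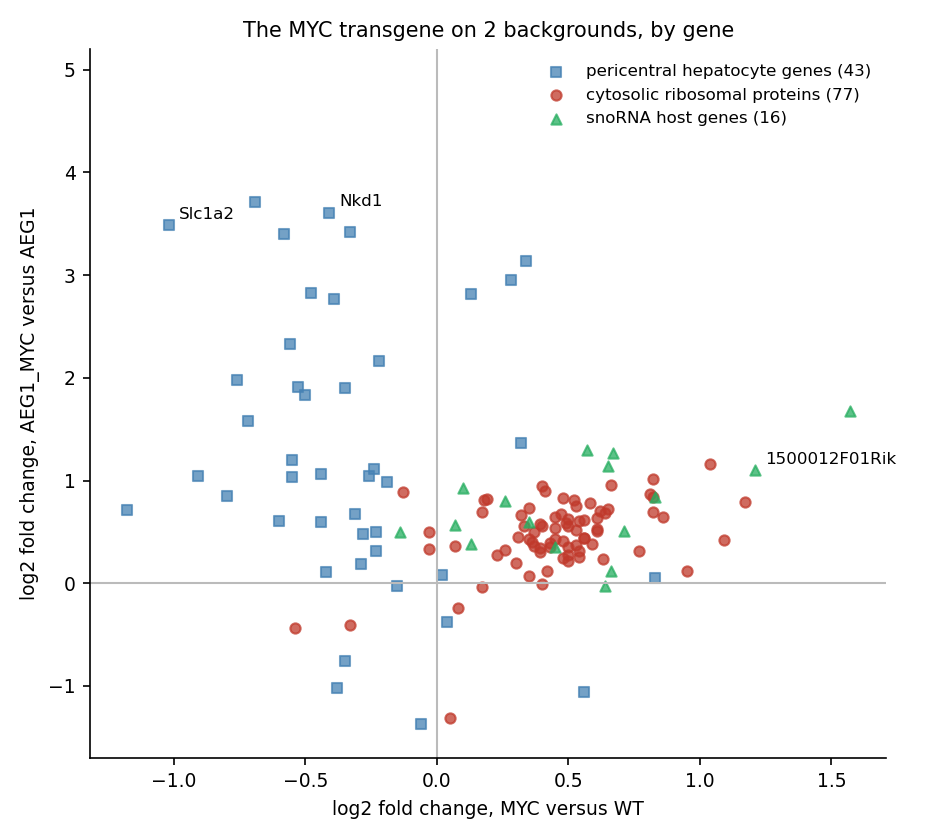
log2 fold change of MYC against WT (horizontal axis) and of AEG1_MYC against AEG1 (vertical axis) for each tested cytosolic ribosomal protein, snoRNA host and pericentral gene. The 2 comparisons share no library but come from the same fit. Most ribosomal and snoRNA host genes lie in the upper right. Of the 43 pericentral genes 35 lie left of 0 and 37 above 0, among them Nkd1 at -0.41 and 3.61.

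Markers of the other cells of the liver had small or uneven differences. Cholangiocyte markers had a median of 0.84 over 8 genes, 7 of them positive, and summed levels of 78.6 to 113 CPM in WT and 120 to 172 CPM in MYC livers. Only Onecut1 among them had no overlap, and the median was 0.27 without MYC mouse 87 and 1.28 without WT mouse 93. Without Onecut1, a transcription factor that hepatocytes share, the summed level of the other 7 markers was 60.4, 103 and 71.2 CPM in WT and 103, 84.4 and 82.1 CPM in MYC livers, and the groups overlapped. Krt19, a keratin of bile ducts, was at 0.488, 1.11 and 4.06 CPM in WT and at 1.93, 0.948 and 8.7 CPM in MYC livers (1.05 ± 0.87). Cftr, which also marks these cells, did not reach the level for testing. Endothelial markers had a median of 0.15 over 15 genes, 13 positive, with summed levels of 540 to 682 CPM in WT and 602 to 688 CPM in MYC livers, and the median ran from 0.06 without WT mouse 72 to 0.24 without WT mouse 54. The summed endothelial level was 704, 714 and 785 CPM in AEG1 livers, above each WT and each MYC liver. On the AEG1 background the median of this list was -0.31. Flt4, the VEGF-C receptor, was at 33, 28.1 and 26.1 CPM in WT and at 43.5, 47 and 41 CPM in MYC livers (0.59 ± 0.19). In AEG1 livers Flt4 was at 39.3, 35.6 and 50.1 CPM, also above each WT liver, and it stood at -0.28 ± 0.19 on that background. Lyve1, the hyaluronan receptor of sinusoidal endothelium, was at 5.7, 3.98 and 5.51 CPM in WT and at 7.88, 10.8 and 10.6 CPM in MYC livers (0.94 ± 0.46).

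Medians of the other marker lists were 0.13 for Kupffer cells and macrophages, -0.02 for stellate cells and fibroblasts, 0.42 for B and plasma cells and -0.34 for T and NK cells, whose summed level was at most 7.29 CPM. Single libraries moved these values: Kupffer markers ran from -0.16 without MYC mouse 75 to 0.66 without WT mouse 54, B and plasma markers from 0.12 without WT mouse 93 to 0.57 without MYC mouse 31, T and NK markers from -0.65 without MYC mouse 75 to 0 without WT mouse 54, and stellate markers reached 0.17 without WT mouse 72. Their part in the results was not tested. Genes of fetal liver and liver tumours had a median of 0.30 over 33, or 0.14 without MYC mouse 87 and 0.48 without WT mouse 93. In this list 4 genes were above WT in all pairs (12.1%, against 5.47% of all genes), among them Lgals1, galectin-1 (0.73 ± 0.32). Afp, alpha-fetoprotein, was at 4.33, 2.76 and 4.36 CPM in WT and at 4.97, 3.93 and 2.74 CPM in MYC livers (0.02 ± 0.41), and so overlapped.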

How the data were processed

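The authors deposited raw read counts per gene for each library, 22609 gene symbols and 5 HTSeq summary lines, which were left out. Per the submitters' processing notes, CASAVA 1.8.2, TopHat2 2.0.7 and HTSeq were used with build mm9; annotation and strand setting are not given in the sources used here. Reads that did not align uniquely were 49.5 to 58% of the counted total, and of the unique reads 11.5 to 14.1% lay outside genes and 0.634 to 0.676% were ambiguous.

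Counts of all 12 libraries were fitted together in edgeR 4.0.16 (R 4.3.3; TMM, filterByExpr, robust quasi-likelihood F test, two-sided), with 1 coefficient per genotype; 13684 genes were tested, with a median SE of 0.208. The procedure was tested on simulated data. DESeq2 1.42.0, limma 3.58.1, other scalings and filters, fewer libraries, a clock score covariate and leaving out each library were the alternatives.

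Members and gene lists were chosen with earlier results of these data known. Named genes were Myc, Mtdh, the 12 genes with the lowest p in each direction among those with a mean of at least 1 CPM and no overlap, and up to 4 members without overlap per list. The other genes named, and the search for the pyrimidine tract, were chosen after values were seen. Relative list levels use log2 (CPM + 0.5). RefSeq promoter windows run from 250 bases before to 50 after a start, with a window for 10789 tested genes. Some genes of these lists are counted but not reported here by name. Transcript length was used in place of protein length, which was not used here.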

Additional observations from a re-analysis of the deposited data

Results flagged for a closer look

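Nkd1, the feedback inhibitor of Wnt signalling, differed between the backgrounds by a test of the difference itself. The log2 fold change of the c-Myc transgene was 4.02 ± 0.21 larger between AEG1_MYC and AEG1 livers than between MYC and WT livers (edgeR adjusted p = 2e-05). All 3 MYC livers were below all 3 WT livers, and all 3 AEG1_MYC livers were above all 3 AEG1 livers.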

How the results depend on the processing

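The count of genes called between MYC and WT was 0 by edgeR under the other scalings, filters, library sets and the clock covariate, and by limma voom. It was 28 with DESeq2 and 1, Myc, without AEG1_MYC mouse 68, so leaving out single libraries gave 0 to 1. Myc stood at 3.45 with DESeq2 (adjusted p = 2.5e-11) and at 3.44 without AEG1_MYC mouse 68 (edgeR adjusted p = 0.041), and ran from 3.03 without MYC mouse 87 to 3.84 without WT mouse 54. The snoRNA host median ran from 0.41 without MYC mouse 87 to 0.71 without WT mouse 72. The cause of these shifts was not tested. Medians of the large and small ribosomal subunit ran from 0.39 to 0.53 and from 0.40 to 0.60 as single libraries were left out. From 45 to 56 ribosomal genes had no overlap on the higher side under the settings run. Leaving out a library can only keep or raise this count, so its range of 47 to 56 there is no check of stability. Scalings moved the median of all genes by at most 0.006. Several list medians near 0 changed sign as single libraries were left out, among them ribosome biogenesis (-0.04 to 0.18). Named genes near 0 also changed sign. As single libraries were left out, Rps13 ran from -0.23 to 0.37, Snhg10 from -0.33 to 0.02, Eif4e from -0.15 to 0.05, Eif4a1 from -0.05 to 0.20, Odc1 from -0.12 to 0.22, Hnf4a from -0.24 to 0.02 and Afp from -0.19 to 0.22. Krt19 ran from -0.38 without MYC mouse 87 to 2.29 without WT mouse 93. No paired analysis was possible because the replicate numbers name mice and are not shared between groups. With 3 mice a group and a median SE of 0.208, small differences of single genes were not detectable. The main edgeR fit also left large ones uncalled, such as Myc at 3.45 ± 0.47 (edgeR adjusted p = 0.266) and Smpdl3b at 2.87 ± 0.57 (edgeR adjusted p = 0.661). Its 0 calls therefore do not exclude large differences.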
